A study of Mus musculus with 5 samples.

Results

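The genes of the laminin chains and of the integrins were followed across 5 RNA-seq libraries from the mouse pelvis-kidney junction, the tissue where the renal pelvis joins the kidney. They were taken by name from the deposited table: all genes named as a laminin α, β or γ chain or as an integrin α or β chain. This gave 37 of the table's 18044 genes, made up of 11 laminin chains, 18 integrin α chains and 8 integrin β chains. All 37 had a mean of at least 10 normalized read counts, so a filter at a mean of 5 removed 0 of them. A normalized read count is the number of reads after division by the size factor that the authors gave each library.

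The cells came from wild-type C57BL/6 embryos at E18.5, late in gestation. Junctions from all embryos were pooled, broken up with collagenase and stained with an antibody to HCN3, a hyperpolarization-activated cation channel. Sorting by flow cytometry separated HCN3-positive cells, which the submitters describe as pacemaker cells of the urinary tract, from HCN3-negative cells of the same junctions. There were 2 libraries labelled HCN3-positive, called P1 and P2 below, and 3 labelled HCN3-negative, called N1, N2 and N3, and the design compares these labels. Whether the libraries came from separate pools of embryos is not in the labels. The p-values therefore reflect the spread among these 5 libraries, and part or all of that spread may be technical.

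Laminins are trimers of an α, a β and a γ chain and form the sheet on which basement membranes are built. Integrins are pairs of an α and a β chain that span the cell membrane and bind matrix or other cells. The β1 chain pairs with many α chains, among them the laminin and collagen receptors of epithelium, muscle and connective tissue. The β2 chain is made by leukocytes, and αL, αM, αX and αD are its partners. In the urinary tract, epithelium, smooth muscle and vessels each lie on basement membranes that differ in their laminin chains.

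Each library had 24588864 to 39034478 reads in genes. The sorted antigen's own transcript did not follow the labels: Hcn3 had 0 and 60 reads in P1 and P2, and 116, 29 and 45 in N1, N2 and N3. The authors' deposited table also compares a different division of the libraries. Its fold equals, in 18047 of 18047 rows including 3 summary rows, the mean of P2, N1 and N3 over the mean of P1 and N2, within a relative tolerance of 0.01. P1 and N2 are called the first set here, and P2, N1 and N3 the second set. The table does not say which set is HCN3-positive, so its values are given beside the comparison by label and not in its place. Several lists of marker genes, though not all, divide by set as well. The summed normalized count of 14 macrophage and other leukocyte genes was 600927 in P1 and 707547 in N2, against 1431 to 3557 in the second set. That of 6 neutrophil genes was 48769.5 in P1, 4083 in N2 and 412 to 740 in the second set. That of 7 stromal genes was 11292 and 10327 in the first set and 93367 to 211149 in the second, and that of 7 smooth muscle genes 5534 and 3272 against 19699 to 126394. Of the 6 neutrophil genes, 4 had both first-set libraries above all of the second set, as did 22.1% of all genes. The sum of 5 proximal tubule genes divided by label instead. It was 3551 and 5295 in P1 and P2 against 7353, 25660 and 12871 in N1, N2 and N3. All 5 of these genes were lower in both libraries labelled positive, as were 5.44% of all genes tested. In limma by label 0 of the 5 passed, and 4 had an unadjusted p under 0.05. The part of these cell types in the values below was not tested. In bulk RNA, fewer cells of a type and less RNA per cell cannot be told apart.

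By label, 0 of the 37 laminin and integrin genes passed, as did 0 (0%) of all 16579 genes tested with limma at an adjusted p of 0.05. Before adjustment, 157 genes had a p under 0.05. The median log2 difference, labelled positive minus labelled negative, was -0.22 over the members and -0.03 over all genes tested, on the log2(normalized count + 1) scale. Both libraries labelled positive lay above all 3 labelled negative in 5.34% of all genes tested, and below all 3 in 5.44%. The second pattern was seen in 0 members. In the authors' deposited table, 6 members were called higher in the first set and 7 higher in the second, at an adjusted p of 0.05. These calls covered 8.1% and 6.09% of all genes of the table. The median log2 ratio of the second set to the first was 0.59 over the members and 0.08 over all genes. Both first-set libraries lay above all of the second set in 6 members and in 22.1% of all genes, and the reverse held in 17 members and in 24.9% of all genes. Every member called higher in the first set is a chain of leukocyte integrins, and 4 of the 7 called higher in the second set are laminin chains.

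**Figure D1:**
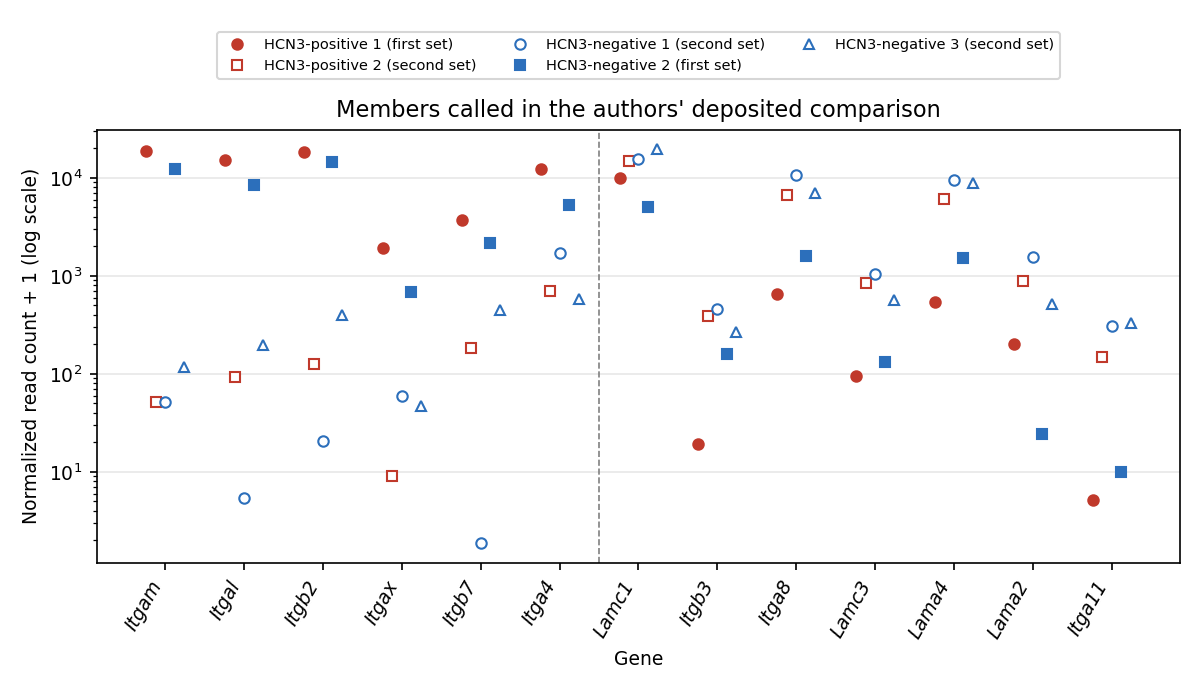
Normalized read count plus 1 (vertical axis, log scale) of the 13 members called in the authors' deposited table (horizontal axis), 1 point per library. Red is labelled HCN3-positive, blue HCN3-negative, filled points are the first set and open points the second. The first-set points of Itgam are at 18921 and 12369 and its second-set points at 50.8 to 115, while those of Itga8 are at 646 and 1604 against 6624 to 10743.

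Among the leukocyte integrins, the β2 chain and its αL, αM and αX partners were higher in P1 and N2 than in the other libraries, by 35.1 to 216 times in the means of the authors' deposited table. Of the 8 leukocyte integrin genes, 6 were called higher in the first set and 0 higher in the second, against 8.1% and 6.09% of all genes. Of the 250 bases before the start of the called members, RefSeq (GRCm38.p6) held an entry for 7 of 13, and the 4 leukocyte ones are shown because these genes moved together. Capitals mark GAGGAA or its complement TTCCTC, the core letters bound by PU.1, a transcription factor of myeloid cells.
Itgam, chr7:128062390-128062639, plus strand: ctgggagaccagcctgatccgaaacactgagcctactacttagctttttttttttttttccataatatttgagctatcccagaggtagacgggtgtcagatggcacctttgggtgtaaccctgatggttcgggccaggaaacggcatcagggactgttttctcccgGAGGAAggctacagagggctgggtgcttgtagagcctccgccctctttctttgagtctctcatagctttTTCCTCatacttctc
Itgax, chr7:128129300-128129549, plus strand: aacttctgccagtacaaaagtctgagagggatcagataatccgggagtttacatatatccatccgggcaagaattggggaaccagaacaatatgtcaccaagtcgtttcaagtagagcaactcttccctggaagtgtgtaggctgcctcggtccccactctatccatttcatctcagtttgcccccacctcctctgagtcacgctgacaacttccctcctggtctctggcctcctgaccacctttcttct
Itga4, chr2:79255176-79255425, plus strand: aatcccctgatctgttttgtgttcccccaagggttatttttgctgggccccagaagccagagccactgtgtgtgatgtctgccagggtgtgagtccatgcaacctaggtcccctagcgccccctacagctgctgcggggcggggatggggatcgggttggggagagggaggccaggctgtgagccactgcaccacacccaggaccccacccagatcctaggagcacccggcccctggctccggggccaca
Itgb7, chr15:102231936-102232185, minus strand: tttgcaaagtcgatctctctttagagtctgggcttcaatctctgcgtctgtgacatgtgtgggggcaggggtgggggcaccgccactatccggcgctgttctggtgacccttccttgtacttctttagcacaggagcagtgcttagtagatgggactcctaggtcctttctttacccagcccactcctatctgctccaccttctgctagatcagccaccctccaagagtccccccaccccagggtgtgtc
Itgam held these letters at 2 places and Itgax, Itga4 and Itgb7 at 0. On either strand they occur in 23.3% of all 32851 promoters of this length, so such a match is a description of the letters only. TGTGGT, the RUNX core, stood in the Itga4 window 1 time, and 14% of all promoters hold it. TGANTCA, the AP-1 site, stood in the Itgax window 1 time, and 6.75% of all promoters hold it.

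Itgb2 (chromosome 10, 77530252 to 77565708, plus strand, GRCm38), the β2 chain, had normalized counts of 18340 in P1 and 14621 in N2. It had 126, 19.6 and 393 in P2, N1 and N3. The sets did not overlap, and the authors' deposited table gives a first set 91.7 times the second, with an adjusted p of 9.01e-49. On this division its adjusted p was 0.00510 in limma, 0.00993 in edgeR and 4.65e-06 in DESeq2. Without N3 the DESeq2 ratio was 226. Itgam (chromosome 7, 128062640 to 128118491), the αM chain of the complement receptor of macrophages and neutrophils, had 18921 and 12369 in P1 and N2 against 51.2, 50.8 and 115. Its ratio was the largest of all members with reads in both sets, at 216 in the authors' deposited table (adjusted p of 1.33e-26). The adjusted p of Itgam was 0.000343 in limma, 0.000430 in edgeR and 5.06e-60 in DESeq2. A GENCODE M21 model on the same strand, Gm49368, shares 68.7% of the exon bases of Itgam, so how its reads were assigned depends on the authors' annotation. Itgal (chromosome 7, 127296260 to 127335138), the αL chain with which leukocytes bind ICAM proteins, had 15226.5 and 8466 in P1 and N2. In P2, N1 and N3 it had 92.0, 4.45 and 196, the second of these from 5 reads. The deposited ratio was 121 in the authors' table, with an adjusted p of 2.74e-12, and the DESeq2 ratio without N3 was 246. With all libraries, the adjusted p of Itgal was 0.00936 in limma, 0.0112 in edgeR and 2.84e-05 in DESeq2.

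Itgax, the αX chain known from dendritic cells and macrophages, was lower than its relatives but divided the same way. It had 1918 and 691 in P1 and N2, and 8.16, 57.9 and 45.6 in P2, N1 and N3. The authors' deposited table gives a ratio of 35.1 and an adjusted p of 0.00271, and the DESeq2 ratio without P1 was 19.0. Itgad, the αD chain, had 46 reads in N2, a normalized count of 51.1, and 0 reads in each other library. Its first-set mean was at least 9.96-fold higher than the second, against a floor of 3 reads per library, and the authors' deposited table did not call it (adjusted p of 0.213). As Itgad was at 0 reads in P1 too, that limit rests on N2 alone.

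The α4 and β7 chains, which pair with each other on lymphocytes and some myeloid cells, were also higher in the first set. Itga4 (chromosome 2, 79255426 to 79333123), which also pairs with β1 to bind VCAM1 and fibronectin, had 12449.6 in P1 and 5251 in N2. It had 701, 1727 and 577 in P2, N1 and N3, so its second-set level was far from 0. Its ratio in the authors' deposited table was 8.84 (adjusted p of 0.0179). In DESeq2 it was 5.34 without P1 and 13.7 without N1. Itgb7 (chromosome 15, 102215995 to 102231944) had 3699 and 2186 in P1 and N2, and 183, 0.891 and 449 in P2, N1 and N3. The authors' deposited table gives a ratio of 13.9 and an adjusted p of 1.41e-06. Itgb7 did not pass in limma on the normalized counts (adjusted p of 0.111). On the recovered reads it did not pass in edgeR or DESeq2 either (0.119 and 0.148). Without N1, where Itgb7 had 1 read, DESeq2 gave an adjusted p of 3.46e-07 and a ratio of 9.21. Without N3 the DESeq2 ratio was 32.0. Itgae, the αE chain that pairs with β7 and binds E-cadherin, was low in all libraries. Its counts were 148, 60.8, 146, 69.9 and 134 in P1, P2, N1, N2 and N3, and the sets overlapped. Markers of T and NK cells and of B cells were low in every library, at summed normalized counts of 22.2 to 433 over 5 genes and 52.2 to 916 over 3 genes. The highest of both sums was in N3, and α4 and β7 were highest in P1. The part of these cells in the levels of α4 and β7 was not tested.

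Levels between genes were compared per kilobase of exon. Summed over αL, αM, αX and αD, the level was 6484 per kilobase in P1 against 6009 for Itgb2, a ratio of 1.08. In N2 the ratio was 0.815, from 3906 and 4791. In the second set these levels were 22.8 to 62.3 for the α chains and 6.42 to 129 for Itgb2, and the ratio ranged from 0.483 to 3.56. Over the 5 libraries, Itgb2 varied most like Stard3, Bin2, 5430427O19Rik, Acaa1a and Cd180, among 12883 genes with a mean of at least 100. Pearson's r of log2(normalized count + 1) was 0.9988 to 0.9997, over 5 points that fall into 2 clusters, so it orders these genes and is no measure of strength. Cd180, a leukocyte receptor, had 438 and 367 in P1 and N2 and 0 to 9.30 in the second set. Stard3 had 5533 and 5451 against 1280 to 2401, a much smaller difference of the same shape.

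The integrin chains called higher in the second set were α8, α11 and β3. The promoters of α8, α11 and Lama2 are shown for the same reason as above, with the same letters in capitals. For β3 there was no RefSeq entry. The Lama2 window precedes a start that lies inside the gene, and ends 2816 bases downstream of where the GENCODE gene begins, while the windows of the other 6 genes shown end within 29 bases of that point.
Itga8, chr2:12301945-12302194, minus strand: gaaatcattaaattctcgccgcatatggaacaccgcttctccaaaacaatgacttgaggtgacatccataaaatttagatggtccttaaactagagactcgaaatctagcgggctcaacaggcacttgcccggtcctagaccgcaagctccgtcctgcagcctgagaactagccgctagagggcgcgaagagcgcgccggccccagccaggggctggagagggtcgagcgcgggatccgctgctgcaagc
Itga11, chr9:62677605-62677854, plus strand: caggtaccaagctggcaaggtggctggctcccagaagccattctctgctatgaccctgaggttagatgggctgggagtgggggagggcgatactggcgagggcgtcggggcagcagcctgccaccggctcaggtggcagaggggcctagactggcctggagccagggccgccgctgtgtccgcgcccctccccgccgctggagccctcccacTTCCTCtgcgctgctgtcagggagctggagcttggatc
Lama2, chr10:27616943-27617192, minus strand: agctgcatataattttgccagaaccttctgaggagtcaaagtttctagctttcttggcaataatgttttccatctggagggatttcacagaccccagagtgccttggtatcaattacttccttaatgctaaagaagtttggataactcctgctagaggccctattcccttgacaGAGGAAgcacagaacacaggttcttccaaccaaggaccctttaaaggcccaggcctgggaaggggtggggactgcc
Itga11 and Lama2 held the letters at 1 place each and Itga8 at 0, so a match was found in windows of genes that moved in opposite directions. Over all entries of the members, 13 of 26 windows held them, against 23.3% of all promoters, and some of these windows belong to the same gene. The RUNX core stood in 2 of the 26 and the AP-1 site in 1, against 14% and 6.75% of all promoters. These counts were not tested.

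Itga8 (chromosome 2, 12106632 to 12301922, minus strand), the α8 chain, is the receptor for nephronectin in kidney development and is made by mesenchyme and smooth muscle. It had 646 and 1604 in P1 and N2, and 6624, 10743 and 7024 in P2, N1 and N3. The sets did not overlap, and the second set was 7.23 times the first in the authors' deposited table (adjusted p of 6.57e-06). Without N2 the DESeq2 ratio was 12.5. Npnt, which encodes nephronectin, had 14154 and 9709.9 in the first set and 8323 to 16454 in the second, and was not called (adjusted p of 1.00 in the authors' table). Itga11 (chromosome 9, 62677826 to 62783982), a collagen receptor of fibroblasts, had 4.23 and 8.88 in P1 and N2, from 3 and 8 reads. It had 147, 310.1 and 327 in P2, N1 and N3. Its ratio was the largest toward the second set, 39.9 in the authors' deposited table with an adjusted p of 2.44e-06, and in DESeq2 it was 61.4 without N2. Itgb3 (chromosome 11, 104608000 to 104670476), the β3 chain, pairs with αV and, on platelets, with αIIb. It had 18.3 and 159 in the first set and 389, 463 and 270 in the second, a ratio of 4.22 with an adjusted p of 0.0290 in the authors' deposited table. Itgb3 did not pass in limma, edgeR or DESeq2 on this division (adjusted p of 0.0802, 0.191 and 0.0651). DESeq2 called it without N2 (2.26e-08), with a ratio of 20.3, and gave 2.31 without P1. Itga2b, the αIIb chain of platelets and their precursors, had 101 and 44.4 in the first set and 73.4, 50.8 and 142 in the second, with overlap. Of 6 megakaryocyte and platelet genes, 2 had both first-set libraries above all of the second set and 1 had the reverse. Over all genes these shares were 22.1% and 24.9%. Pf4, also known from macrophages, had 10328 and 21971 in the first set and 31.9 to 73.5 in the second. Ppbp had 36.6 and 149 against 0 to 13.0. Gp1bb had 0 and 0 in the first set and 10.2 to 61.5 in the second. Gp9 had 0 to 39.1 normalized counts, with overlap.

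The other collagen receptor chains, α1, α2 and α10, also had every second-set library above both first-set libraries, but were not called in the authors' deposited table. Itga1 had 282 and 1328 in P1 and N2 and 2912, 4881 and 2335 in P2, N1 and N3, with an adjusted p of 0.0565 in the authors' deposited table. Itga2, a receptor of epithelium and platelets, had 7.05 and 57.7 against 176, 145 and 639, with the highest value in N3. Itga10, known from cartilage, had 1.41 and 14.4 against 38.6, 106 and 22.3, and a neighbouring model on the same strand, Gm42957, shares 33.5% of its exon bases. Limma called Itga1 on this division (adjusted p of 0.0413), and DESeq2 called Itga1 and Itga2 (0.00895 and 0.00902). edgeR called neither (0.0994 and 0.113).

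Of the laminin receptor chains, α6 was even across the libraries and α3 and α7 were not. Itga6 had 9246, 8417, 8847, 11531 and 10986 in P1, P2, N1, N2 and N3, so its highest library was 1.37 times the lowest. Itga7, the α7 chain of muscle, had 1.41 and 54.4 in P1 and N2, the first from 1 read, and 350.1, 1086 and 363 in P2, N1 and N3. Its adjusted p was 0.0574 in the authors' deposited table, and limma and DESeq2 called it on this division (0.0285 and 0.000694) while edgeR did not (0.0712). Itga3, the α3 chain of podocytes and other epithelium, had 1154 and 760.2 in the first set and 2234, 1773 and 8255 in the second. Its level in N3 stood well above the rest, where the summed count of 5 podocyte genes was 301366 against 6400 to 47372 in the other libraries. The authors' deposited table did not call Itga3 (adjusted p of 0.592). Limma and edgeR did not call it either (0.10 and 0.101), and DESeq2 did (0.0112).

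The α5, αV and α9 chains were not called. Itga5, the α5 chain of the fibronectin receptor, had 2319 and 1463 in P1 and N2 and 2760.3, 3726 and 5850.1 in P2, N1 and N3, with an adjusted p of 0.240 in the authors' deposited table. Its adjusted p was 0.0774 in limma, 0.0926 in edgeR and 0.0347 in DESeq2. Itgav, the αV chain that binds vitronectin, lay between 4239 and 7182 in the 5 libraries, and Itga9, the α9 chain that binds tenascin, between 4909 and 7101. These, Itga6 and Lamb1 were the 4 members whose highest library was under 2 times the lowest, while in 19 members the highest was over 10 times the lowest or a library was at 0.

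**Figure D2:**
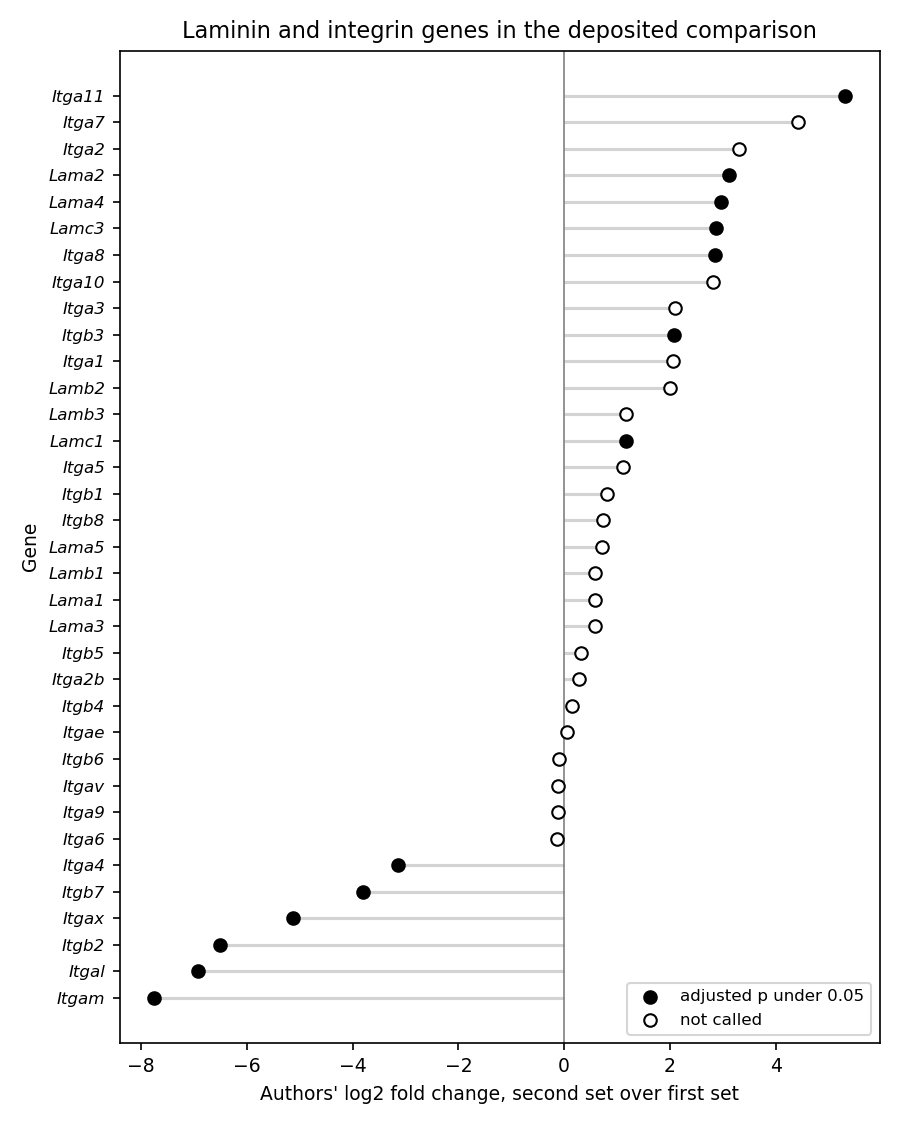
Log2 fold change of the second set over the first in the authors' deposited table (horizontal axis) for members reported here with reads in both sets (vertical axis). Filled points have an adjusted p under 0.05 in that table. The values run from -7.75 for Itgam to 5.32 for Itga11.

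The remaining β chains were not called. Itgb1, the β1 chain, had 20666 and 28739 in P1 and N2 and 31619, 45562 and 53393 in P2, N1 and N3, without overlap and with an adjusted p of 0.199 in the authors' deposited table. Its adjusted p was 0.0856 in limma, 0.111 in edgeR and 0.0483 in DESeq2. Itgb5, a partner of αV, had 19922 and 23989 in P1 and N2, 11523 and 12560 in P2 and N1, and 57806 in N3. The table's second set was 1.24 times the first (adjusted p of 1.00, the authors' deposited value), and without N3 the direction turned, with a DESeq2 log2 ratio of -0.87 (SE 0.22, adjusted p of 0.000432). Itgb6, the β6 chain of epithelium, lay between 613 and 1796 with overlapping sets. Itgb8, which with αV activates TGF-β, lay between 59.2 and 153. Itgb4, the β4 chain of hemidesmosomes, had 420.1 in P1 and 312 in P2, and 467, 113 and 105 in N1, N2 and N3.

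Composition per kilobase shows which β chains make up the whole. In P1 and N2, Itgb2 made up 33.1% and 24.3% of the summed β level. Its share was 0.364%, 0.0425% and 0.433% in P2, N1 and N3. Itgb1 held 27.9% and 35.8% in P1 and N2 and 68.2%, 73.9% and 43.9% in P2, N1 and N3. Itgb5 held more than Itgb1 in P1 (30.9%) and N3 (54.6%). It held less in N2 (34.3%), P2 (28.6%) and N1 (23.4%). Among α chains, Itgam held 35.6% and 31.8% in the first set and 0.180% to 0.348% in the second. The highest α chain was Itga6 in P2 (21.9%), Itga8 in N1 (26.0%) and Itga3 in N3 (21.9%). Over all members, Itgb1 and Itgb5 had the highest median levels, 7748 and 5607 per kilobase, and their ranges over the libraries overlapped. Lamb1 and Lamc1 followed at 2143 and 1803, also with overlapping ranges, and then Itga6 at 1024.

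**Figure D3:**
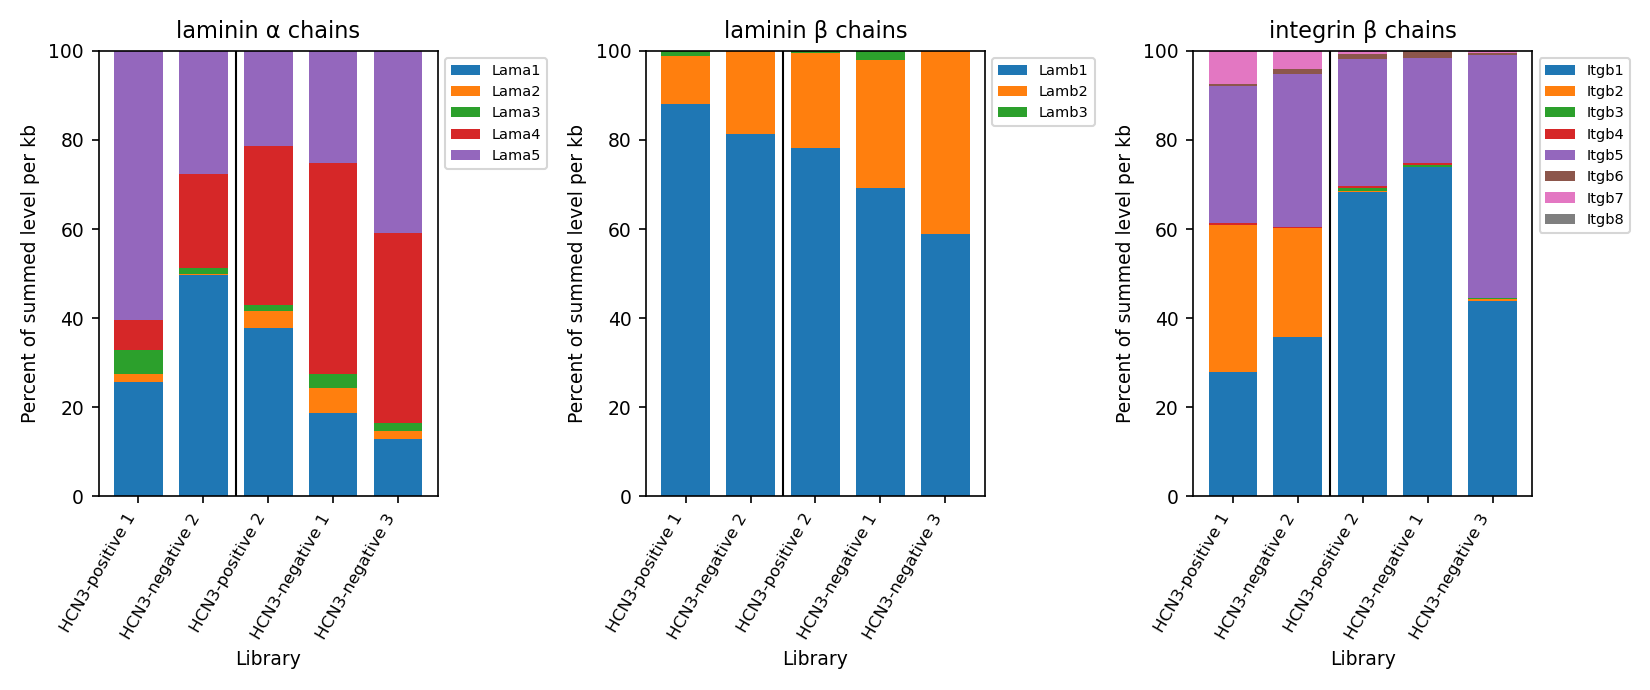
Share of each chain in the summed normalized count per kilobase (vertical axis, percent) of the laminin α, laminin β and integrin β chains, by library (horizontal axis), with the first set to the left of the black line. Itgb2 took 33.1% and 24.3% of the β chains in the first set and 0.0425% to 0.433% in the second, and Lama4 took 6.68% and 21.0% of the laminin α chains against 35.6% to 47.3%.

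Laminin α2 and α4, the chains of muscle, mesenchyme and vessels, were higher in the second set, while the epithelial chains α1, α3 and α5 were not called. Lama4 (chromosome 10, 38965515 to 39110188), the α4 chain of vessel and smooth muscle basement membranes, had 543 and 1518 in P1 and N2 and 6065 to 9426 in the second set (N3 8769). Its ratio was 7.85 with an adjusted p of 1.71e-09 in the authors' deposited table. The DESeq2 ratio was 5.23 without P1 and 14.8 without N2. Lama2 (chromosome 10, 26980036 to 27619758, minus strand), the α2 chain of muscle and nerve, had 203 and 23.3 in P1 and N2 and 896, 1553 and 511 in P2, N1 and N3. The deposited ratio was 8.72 in the authors' table (adjusted p of 0.0241). It passed in limma and DESeq2 but not in edgeR (adjusted p of 0.0755), and its DESeq2 ratio was 41.6 without P1 and 4.85 without N2. Endothelial markers, summed over 6 genes, were at 6081 and 6542 in the first set and 23007 to 88162 in the second. Endothelial genes were highest in N3 and stromal and smooth muscle genes in N1, whereas Lama4 was at similar levels in N1 and N3.

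The α1 and α5 chains lie under kidney and ureteric epithelium. Lama1 had 1673 and 2880.0 in the first set and 5148, 2985 and 2135 in the second, with the highest value in P2. Lama5, also a chain of glomerular and vessel basement membranes, had 4638 and 1888 against 3441, 4724 and 7937, with the highest value in N3. Both overlapped between the sets, with adjusted p of 0.782 and 0.668 in the authors' deposited table. As a share of the summed α level per kilobase, α5 led in P1 (60.5%), α1 in N2 (49.7%) and P2 (37.7%), and α4 in N1 (47.3%). In N3, α4 and α5 stood side by side at 42.6% and 40.9%. P1 and N2, which both had high leukocyte integrins, differed from each other in their main laminin α chain.

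Among the β and γ chains, γ1 and γ3 passed and β1 and β2 did not. Lamc1 (chromosome 1, 153218922 to 153332786, minus strand), the γ chain of most laminins, had 9852 and 5067 in P1 and N2 and 14914, 15719 and 19547 in P2, N1 and N3. The ratio in the authors' deposited table was 2.24 (adjusted p of 0.0149). It did not pass in edgeR (0.0507) or, without N2, in DESeq2 (0.0718). Lamc3 (chromosome 2, 31887291 to 31946539), a minor γ chain, had 94.4 and 129.8 against 846, 1037 and 571, a ratio of 7.30 with an adjusted p of 1.14e-05 in the authors' deposited table. Lamb1, the common β chain, had 16656 and 13508 against 22953, 23861 and 21248, apart but with an adjusted p of 0.378 in the authors' deposited table. Its adjusted p was 0.0539 in limma, 0.0911 in edgeR and 0.0189 in DESeq2. Lamb2, the β chain of mature glomerular, vessel and muscle basement membranes, had 1245 and 1890.03 against 3820, 6065 and 9064. Its adjusted p was 0.0514 in the authors' deposited table, and limma, edgeR and DESeq2 each called it higher in the second set (0.0135, 0.0222 and 5.05e-05). Lamb2 made up 10.7% and 18.6% of the summed β level per kilobase in P1 and N2 and 21.2%, 28.7% and 41.0% in P2, N1 and N3. In all 5 libraries the summed α level of the laminins was below the summed β level, with the β chains at 2.10 to 2.83 times the α chains.

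Laminin α3 and β3 belong to the basement membrane under basal epithelium, where hemidesmosomes anchor the cells. Lama3 had 388 and 198 in P1 and P2 and 552, 85.5 and 311 in N1, N2 and N3. Lamb3 had 162 and 95.7 in P1 and P2 and 462, 9.99 and 21.4 in N1, N2 and N3. Per kilobase, Lama3 was at 7.95 to 51.4 and Lamb3 at 1.51 to 69.9, and their ranges overlapped. Neither was called in the authors' deposited table (adjusted p of 0.850 and 0.918). The basal marker Krt5 had 317, 135, 623, 16.6 and 29.8 in P1, P2, N1, N2 and N3, with its highest value in N1 as for Lama3, Lamb3 and Itgb4. Krt14, another keratin of basal epithelium, was highest in P1 instead, with 216, 37.8, 52.6, 0 and 0 in the same order. Epcam, a general epithelial marker, had 8088 and 10403.9 in P1 and P2 and 5926, 5062 and 2693 in N1, N2 and N3. Of 7 epithelial markers, 7 had a log2 difference by label above 0, and 0 passed in limma (1 at an unadjusted p under 0.05). In 3 of them (Epcam, Cdh1 and Cldn7) both libraries labelled positive lay above all labelled negative, as in 5.34% of all genes tested. The part of epithelial cells in the levels of Lama3, Lamb3 and Itgb4 was not tested.

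**Figure D4:**
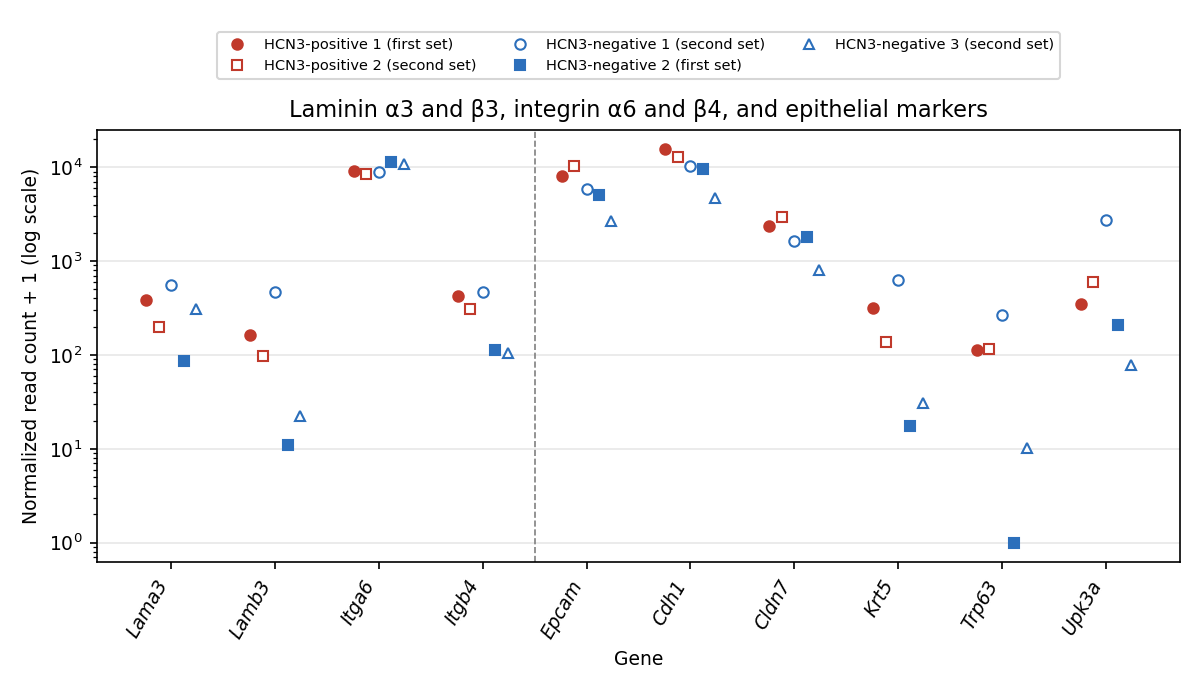
Normalized read count plus 1 (vertical axis, log scale) of laminin α3 and β3, of integrin α6 and β4 and of 6 epithelial markers (horizontal axis), 1 point per library. Colours, shapes and filling are as in the plot of called members. Epcam, Cdh1 and Cldn7 have both red points above all blue ones, with Epcam at 8088 and 10403.9 against 2693 to 5926, and Lama3, Lamb3 and Krt5 have their highest point in N1.

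The other proteins of basement membranes were higher in the second set where they were called. The authors' deposited table called 6.09% of all genes higher in the second set and 8.1% higher in the first. Of 23 basement membrane genes, it called 11 higher in the second set and 0 higher in the first, and all 23 had a ratio above 1. Their median log2 ratio was 1.49, against 1.17 for the 11 laminin chains and 0.08 for all genes. Nid1, which links laminin to collagen IV, had 684 and 1742 in P1 and N2 and 11528 to 20344 in the second set, with a log2 ratio of 3.79 in the authors' deposited table. Frem1 and Egflam, matrix proteins of basement membranes, had log2 ratios of 3.76 and 3.74 in the same deposited table of the authors.

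Inside the cell, integrin tails bind talins and kindlins, which join them to actin. Of 27 genes of the integrin adhesion complex found in the table, the authors' deposited table called 7 higher in the first set and 5 higher in the second. The shares over all genes were 8.1% and 6.09%. Fermt3, the kindlin of blood cells, had 13782 and 17048 in P1 and N2 and 53.5 to 490 in the second set, with a log2 ratio of -6.11 in the authors' deposited table. Parvg, the parvin of blood cells, and Apbb1ip, which links Rap1 to talin, had log2 ratios of -6.17 and -4.31 there, as the authors' values. Fermt2, the kindlin of most other cells, had 1221 and 1799 against 7773 to 11071, a log2 ratio of 2.60 in the authors' table. Parva and the adaptor Bcar1 had 2.19 and 1.81 in the authors' deposited table. Ilk, the kinase-like partner of the parvins, lay between 10803 and 15611 in all libraries and was not called.

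Of 28 integrin ligands and associated membrane proteins, the authors' deposited table called 6 higher in each set. Of all genes it called 8.1% higher in the first set and 6.09% higher in the second. Nrros and Lrrc32, which hold latent TGF-β on myeloid cells and on other cells, went opposite ways. Nrros had 13543 and 19977 in P1 and N2 and 645 to 2422 in the second set, a log2 ratio of -3.64 in the authors' deposited table. Lrrc32 had 1.41 and 212 against 1234 to 2284, a log2 ratio of 4.15 in that table of the authors. Tgfb1 and Vcam1, a ligand of α4β1, were higher in the first set (log2 ratios of -2.26 and -1.94, authors' deposited table). Tnc, the tenascin bound by α8 and α9 chains, and Ctgf were higher in the second (3.11 and 2.70 in the authors' deposited table). Of 5 hemidesmosome genes, 0 were called in either direction by the authors' deposited table. With 8.1% and 6.09% of all genes called, 0 of 5 is no result about these genes.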

How the data were processed

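RNA was measured in 5 libraries, grouped by title. A Qiagen micro kit was used for RNA, and a Clontech cDNA kit followed by Nextera XT for the libraries, per the labels' protocols. The submitters' processing notes list the build mm10 and, among other tools, DESeq 1.18.0, HTSeq 0.6.1p2 and TopHat2 2.0.11. Neither the annotation nor the use of strand in counting is stated there, so a gene and an overlapping gene on the other strand may share reads.

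The signal columns hold, as deposited, the authors' read counts after division by 1 size factor per library. Per the file headers the table also holds the authors' ratio of 2 means as a fold, its log2, a p-value and an adjusted p-value. Whole reads were recovered using the smallest nonzero value of each column as 1 read, and 100% of values were whole within 0.01. A floor of 3 reads equals 2.23 to 4.23 normalized counts and covers counting error only, since reads without molecular identifiers are not independent molecules.

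Labels were compared with limma 3.58.1 (trend, R 4.3.3) on log2(normalized count + 1), keeping the 16579 genes whose mean reached 5, at a Benjamini-Hochberg adjusted p of 0.05. edgeR 4.0.16 (quasi-likelihood) and DESeq2 1.42.0 served as alternatives on the recovered reads, also for the authors' division. Scripts were tested on simulated data. Levels per kilobase use unions of GENCODE M21 exons. Members were named with their values, and some results are not reported here. From each partner list, up to 3 genes called in each direction in the authors' table with the largest ratio and a mean of at least 50 were named, and the 5 genes most like Itgb2 by Pearson's r. Npnt, Ilk and single marker genes were chosen after their values were seen. The members and lists were chosen with earlier results of these data known.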

Additional observations from a re-analysis of the deposited data

How the results depend on the processing

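By label, 0 members passed under each alternative: pseudocounts of 0.5 and 8, no filter on low values, TMM scaling, edgeR, DESeq2 and each library left out. Over all genes DESeq2 called 10, against 0 in limma and edgeR. The members' median log2 difference by label was -0.22 and lay from -0.55 to 0.000878 with each library left out, the last without the library labelled HCN3-positive 1. In the authors' division, DESeq2 called 14 members higher in the second set, against 7 in the authors' table. A threshold of 0.01 on the authors' own adjusted p left 4 of those 7. With P2, N1 or N3 left out in turn, DESeq2 called 10 to 13 higher in the second set and 5 to 6 higher in the first. The members' median log2 ratio lay from 0.60 to 0.97 with each library left out. The share of all genes called in these refits is not given here, so the member counts have no background to be read against. Of the 13 members the authors called, limma and DESeq2 each called 11 the same way and edgeR 9. Itgb5 turned from 0.31 to -0.87 without HCN3-negative 3 and was -0.11 in limma, and its values with each library left out lay from -0.87 to 0.69. For libraries with the same sample number in their titles, deviations from the group means correlated at -0.53 and -0.69 across genes. Each such pair joins a library of the first set with a library of the second. Deviations of P1 and P2 from their own mean are also exact opposites. These correlations therefore cannot show whether the sample numbers mark pairs. A fit with the number as a replicate block called 0 genes and 0 members and gave a median difference of -0.09. Low reads limit Itgad, Itga10, Itga11 and Itga7 in the first set, which had 0 to 49 reads there.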
